A study of Mus musculus with 8 samples.

Results

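The genes described here encode the CD2, SLAM and CD5 families of T cell surface receptors, the adaptor of the SLAM receptors, and the costimulatory receptors CD28 and CD27. The 10 genes were chosen by name, with earlier results of these data known. All 10 were measured, among 18193 genes represented by a probe set with 1 gene symbol. Together they have 15 such probe sets of 45101 on the array, and the probe set with the highest mean over all arrays stands for its gene.

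The cells were T29, a thymic lymphoma line of the mouse. The series text describes it as Ikaros-deficient. Ikaros is a zinc finger transcription factor of lymphocytes encoded by Ikzf1. Ik1ER cells were T29 cells transduced with MigR1-Ik1ER, a retroviral vector for an inducible Ikaros protein, and were treated with 4OHT (4-hydroxytamoxifen) or ethanol. MigR1 cells were T29 cells transduced with the MigR1 vector and were also treated with 4OHT or ethanol. The dose of 4OHT was 100 nM and every treatment lasted 24 h, with 2 arrays in each of the 4 groups. All groups share the single parental line T29, and the labels say neither whether the transduced cells were clones nor whether both arrays of a group had a culture each. P-values therefore rest on differences between arrays that could be technical, and the number of arrays limits the precision.

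CD2 is an adhesion receptor that binds CD48 in the mouse and strengthens the contact between a T cell and the cell it touches. Receptors of the SLAM family, which include SLAMF1, SLAMF6 and LY9, mostly bind themselves on a neighbouring cell, and their cytoplasmic tails recruit the small adaptor SAP, encoded by Sh2d1a, which in turn brings in the kinase FYN. CD5 and CD6 are scavenger receptor family proteins that dampen T cell receptor signals, with CD5 rising in thymocytes in proportion to the strength of that signal. CD28 and the TNF receptor family member CD27 give T cells costimulation when bound by ligands on antigen-presenting cells.

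Of the T lineage markers measured, all 6 (Cd3e, Cd3d, Cd3g, Cd247, Thy1 and Bcl11b) read above 5.27, the mean of the brightest of 27 control probe sets for Bacillus genes, which serves here as a gauge of background. None of the 3 natural killer cell markers, 1 of 4 B lineage markers (Pax5), 2 of 5 myeloid markers (Csf1r and Lyz2) and the only erythroid marker measured (Klf1, at 5.72) did so. The summed level of the T lineage markers was 14.77 and 14.85 (log2) on the Ik1ER 4OHT arrays and 14.99 and 15.06 on the Ik1ER ethanol arrays. The 6 genes did not share a direction. The means were lower in 4OHT than in ethanol for Cd3e (10.44 and 10.86), Cd3d (13.03 and 13.52) and Cd3g (12.26 and 12.96), and higher for Cd247 (10.81 and 10.62), Thy1 (12.93 and 12.63) and Bcl11b (12.13 and 11.95). That of the natural killer cell markers lay between 5.40 and 5.65 on the Ik1ER 4OHT arrays and between 5.57 and 5.60 on the Ik1ER ethanol arrays. For the B lineage the sum was 7.02 on both Ik1ER 4OHT arrays and 6.90 to 6.99 on the Ik1ER ethanol arrays, and for the myeloid markers it was 7.52 to 7.64 in 4OHT and 7.60 to 7.70 in ethanol. The part of these differences in the results was not tested. One probe set of Ikzf1 (1421303_at) read 11.27 and 10.45 in Ik1ER cells in 4OHT and 11.17 and 10.60 in ethanol, against 8.16 and 8.51 in MigR1 cells in 4OHT and 8.12 and 8.14 in ethanol. The other Ikzf1 probe set (1436312_at) did not separate the lines, with 9.97 to 10.44 on the Ik1ER arrays and 10.20 to 10.36 on the MigR1 arrays. The replicate 2 arrays of Ik1ER cells stood apart in control probe sets. For the transferrin receptor, the 3′ reading was higher than the 5′ reading by 1.91 (4OHT) and 1.66 (ethanol), against 1.16 to 1.39 on the other 6 arrays. The mean of the hybridization controls was 8.86 on Ik1ER 4OHT replicate 2, against 9.41 to 9.54 on the other arrays, and that of the 18S rRNA probe sets was 10.07 on Ik1ER ethanol replicate 2, against 8.54 to 9.18. Results are therefore also given without this pair.

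Sequence upstream of the gene was at hand for 5 of the 10 genes, as the 250 bases before the start in RefSeq's GRCm38.p6 annotation. Ikaros proteins are known to bind DNA at the core GGGAA, which was searched on both strands (the reverse complement is TTCCC) and which contains GGAA, the core bound by ETS factors. It was present in 2 of the 5 windows, those of Slamf1 and Cd5, and absent from those of Slamf6, Cd27 and Cd48. Of all 32851 such windows, 56.2% held it. The windows shown are those of Slamf6 and Cd27, whose transcripts rose, and of Slamf1, whose transcript was not called, with matches to GGGAA or TTCCC in capitals.
Slamf6 (chr1:171917212-171917461, plus strand): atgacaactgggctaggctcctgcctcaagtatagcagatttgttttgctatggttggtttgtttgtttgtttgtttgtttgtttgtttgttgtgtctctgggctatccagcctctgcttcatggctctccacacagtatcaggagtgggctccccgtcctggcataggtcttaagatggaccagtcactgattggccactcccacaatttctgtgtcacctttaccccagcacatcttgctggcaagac
Cd27 (chr6:125237028-125237277, minus strand): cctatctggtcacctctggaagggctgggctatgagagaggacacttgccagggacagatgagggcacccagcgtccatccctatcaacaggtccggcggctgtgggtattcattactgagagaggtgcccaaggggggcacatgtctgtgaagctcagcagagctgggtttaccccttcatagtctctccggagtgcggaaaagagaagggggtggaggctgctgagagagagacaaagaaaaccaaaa
Slamf1 (chr1:171766882-171767131, plus strand): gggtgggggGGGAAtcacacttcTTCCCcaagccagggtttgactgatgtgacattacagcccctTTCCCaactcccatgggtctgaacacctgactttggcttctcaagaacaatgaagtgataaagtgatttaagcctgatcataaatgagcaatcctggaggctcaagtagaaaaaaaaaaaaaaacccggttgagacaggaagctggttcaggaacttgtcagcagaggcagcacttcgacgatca
The Slamf1 window held 3 matches, 1 of them within TGGGAA or its complement, a longer form found in 21.6% of all windows. A match to 5 letters is not a binding site, and no binding was measured here.

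The series was designed to find genes that respond to induced Ikaros. In Ik1ER cells 5 of the 10 genes rose with 4OHT over ethanol. They were Slamf6, Cd27, Cd2, Ly9 and Sh2d1a, with rises between 1.47-fold and 2.05-fold, and no gene of the 10 was called lower. Each rise was called by limma at an adjusted p under 0.05, a threshold that 5.34% of all genes passed, with 2.80% called higher. Shares of all genes count all 18193, dim ones included. Outside the 10, 11267 genes had a mean above the background gauge. The median change of the 10 was 0.46 on the log2 scale, beside -0.0044 over all genes. None of the 10 was called for 4OHT in MigR1 cells (0% of all genes), nor for Ik1ER against MigR1 cells in ethanol (0% of all genes). RNA came from whole cultures, so that more cells with a transcript and more transcript per cell cannot be told apart.

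**Figure D1:**
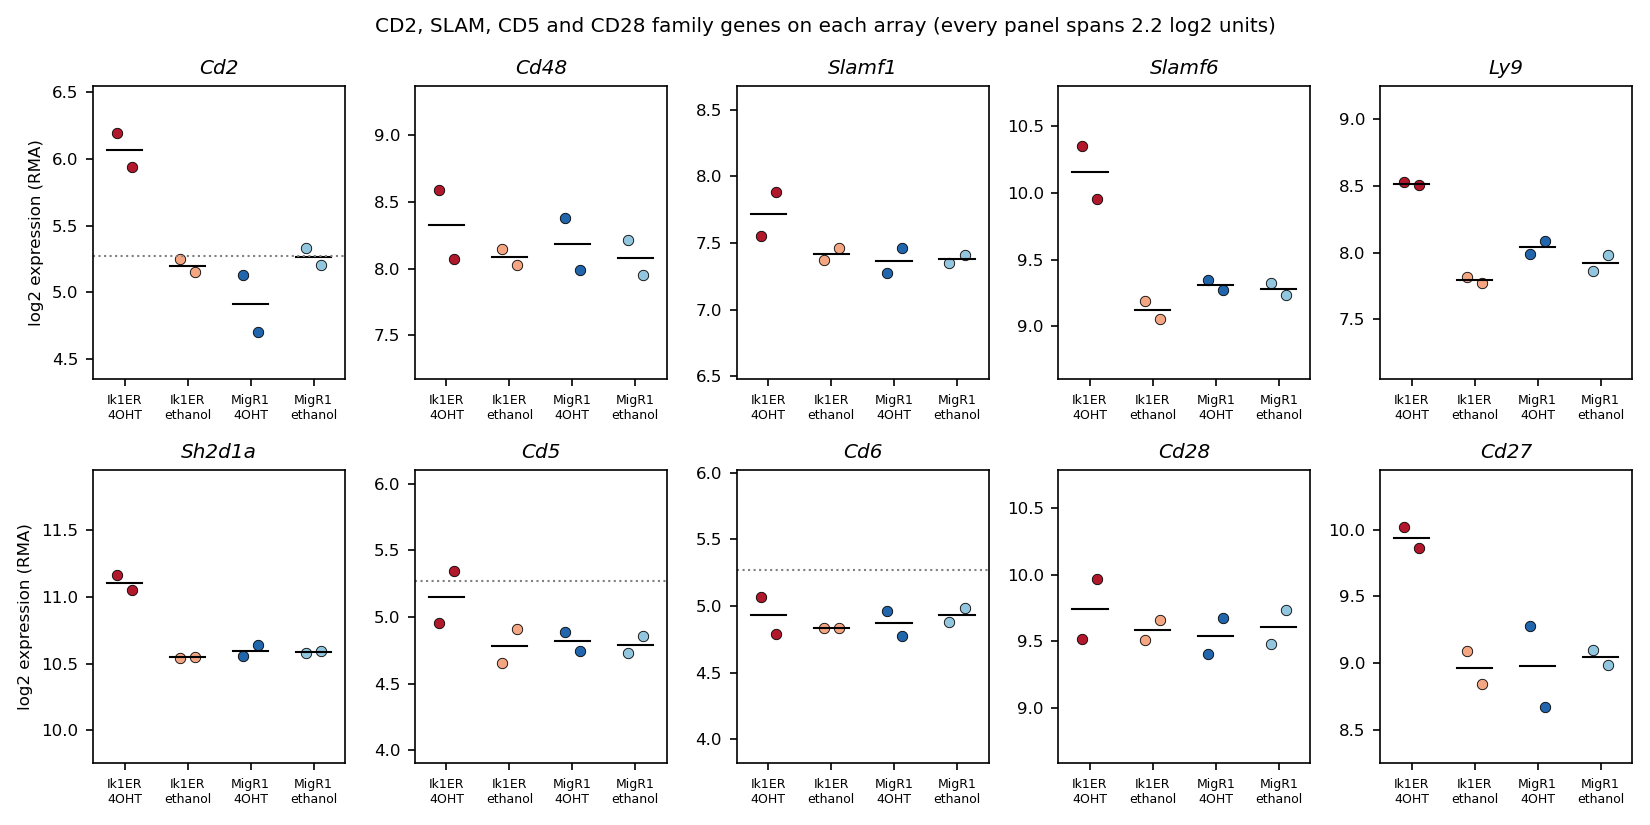
Log2 expression (RMA) of each gene on each of the 8 arrays, with points for arrays and a bar for the mean of the 2 arrays of a group. The dotted line marks the highest mean of the Bacillus controls (5.27) where it falls within a panel. Both Ik1ER 4OHT arrays stand above all other arrays for 7 of the 10 genes, beside 12.6% of all genes. These are Cd2, Slamf6, Ly9, Sh2d1a and Cd27, which were called, and Slamf1 and Cd5, which were not.

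The receptor SLAMF6 is also called Ly108 in the mouse. Its probe set read 10.35 and 9.96 in Ik1ER cells in 4OHT and 9.19 and 9.05 in Ik1ER cells in ethanol, and 9.35 and 9.27 in MigR1 cells in 4OHT and 9.32 and 9.23 in MigR1 cells in ethanol (log2). The lower of the Ik1ER 4OHT arrays lay above the highest of the 6 other arrays. Slamf6 rose by 1.03 (SE 0.13, 2.05-fold, limma, adjusted p = 0.00407) with 4OHT in Ik1ER cells, and its difference of 0.03 in MigR1 cells was not called (adjusted p = 1.00). The call in Ik1ER cells held under all 17 alternative settings, with adjusted p of at most 0.0334. The array holds 2 further probe sets of the gene.

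The second probe set of Slamf6 (1420659_at) read 8.58 and 8.65 in Ik1ER cells in 4OHT and 7.38 and 7.36 in ethanol, and between 7.40 and 7.58 on the 4 MigR1 arrays. It rose by 1.25 (SE 0.08, adjusted p = 0.000664 over all probe sets). The dimmest one (1457773_at) read 6.97 and 6.64 in Ik1ER cells in 4OHT and 6.32 and 6.06 in ethanol. Its groups were also apart, but the difference of 0.61 was not called (SE 0.16, adjusted p = 0.122). Of the 3 probe sets of Slamf6, all read higher, and over all probe sets of the array 2.50% were called in this comparison.

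LY9, a self-binding SLAM receptor of lymphocytes, had the tightest replicates in Ik1ER cells among the receptors that rose. Its values were 8.53 and 8.51 in Ik1ER cells in 4OHT and 7.82 and 7.77 in ethanol, and 7.99 and 8.09 in MigR1 cells in 4OHT and 7.86 and 7.98 in ethanol. The Ik1ER ethanol arrays were the lowest of the 8. Ly9 rose by 0.72 (SE 0.08, 1.65-fold, adjusted p = 0.00218) with 4OHT in Ik1ER cells and kept its call under all 17 alternative settings (adjusted p at most 0.0477). In MigR1 cells its difference was 0.12 (95% interval -0.06 to 0.30), although the 4OHT arrays of that line lay just above the ethanol arrays, as was the case for 16.5% of all genes.

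Sh2d1a, which encodes the adaptor SAP through which several SLAM receptors signal, read 11.16 and 11.05 in Ik1ER cells in 4OHT and 10.54 and 10.55 in ethanol. In MigR1 cells it read 10.56 and 10.64 in 4OHT and 10.58 and 10.59 in ethanol. The 6 other arrays thus spanned 10.54 to 10.64, and the Ik1ER 4OHT arrays lay above them. The rise was 0.56 (SE 0.07, 1.47-fold, adjusted p = 0.00521) and the call held under all 17 settings (adjusted p at most 0.0440).

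The other SLAM family members of the 10 were not called. Slamf1, a self-binding costimulatory receptor, read 7.55 and 7.88 in Ik1ER cells in 4OHT and 7.37 and 7.46 in ethanol, and between 7.27 and 7.46 in MigR1 cells. Both 4OHT arrays lay above the other 6, but the difference of 0.30 (95% interval 0.02 to 0.57) had an adjusted p of 0.243. The other probe sets of Slamf1 differed by -0.13 and 0.12 with adjusted p of 0.663 and 0.683, so that the 3 did not share a direction. Cd48, which encodes the GPI-anchored ligand of CD2 in the mouse, read 8.59 and 8.08 in Ik1ER cells in 4OHT and 8.15 and 8.03 in ethanol. These groups overlapped, and so did those of MigR1 cells, with 8.38 and 7.99 in 4OHT and 8.21 and 7.95 in ethanol. Its difference in Ik1ER cells was 0.24 (95% interval -0.19 to 0.68, adjusted p = 0.597).

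**Figure D2:**
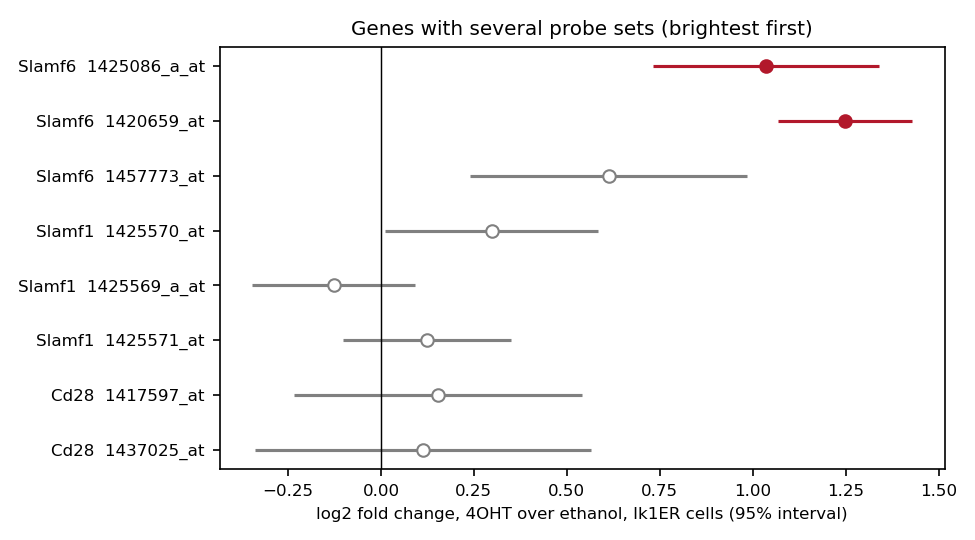
Log2 fold change of 4OHT over ethanol in Ik1ER cells for every probe set of the 3 genes that have several, with 95% intervals from limma. Filled points were called over all probe sets. Of Slamf6 2 of 3 were called, at 1.03 and 1.25, and of Slamf1 and Cd28 none.

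Cd2 itself was dim. It read 6.19 and 5.94 in Ik1ER cells in 4OHT and 5.25 and 5.15 in ethanol, and 5.13 and 4.70 in MigR1 cells in 4OHT and 5.33 and 5.20 in ethanol. Its Ik1ER 4OHT arrays stood above the background gauge of 5.27 and all others lay close to or below it. With readings below the gauge set to it, the mean of Cd2 was at least 1.73-fold higher in Ik1ER cells in 4OHT than in ethanol (measured means 6.06 and 5.20). This bound (0.79 on the log2 scale) rests on the means alone, without the spread between arrays. The 95% interval of the fitted rise, 0.53 to 1.21, reaches below it. The fitted rise was 0.87 (SE 0.15, adjusted p = 0.0143). It was not called without Ik1ER 4OHT replicate 1, Ik1ER ethanol replicate 1, Ik1ER ethanol replicate 2 or both replicate 2 arrays of Ik1ER, with adjusted p of at most 0.106. In MigR1 cells both 4OHT arrays read below both ethanol arrays, as was the case for 13.2% of all genes. Their means of 4.91 in 4OHT and 5.27 in ethanol were not above the gauge, so the fitted difference of -0.35 (adjusted p = 1.00) gives no size.

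CD27, which binds CD70, is a receptor that supports the survival of activated T cells. Cd27 read 10.02 and 9.86 in Ik1ER cells in 4OHT and 9.09 and 8.84 in ethanol. In MigR1 cells it read 9.28 and 8.67 in 4OHT and 9.10 and 8.99 in ethanol, and the 4OHT arrays of that line lay on either side of both ethanol arrays. The rise in Ik1ER cells was 0.98 (SE 0.18, 1.97-fold, adjusted p = 0.0217). It was not called without any 1 of the 4 Ik1ER arrays or without both replicate 2 arrays of Ik1ER, with adjusted p of at most 0.191.

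CD28, the main costimulatory receptor for T cell activation, was not called. Cd28 read 9.52 and 9.96 in Ik1ER cells in 4OHT and 9.51 and 9.66 in ethanol, and 9.41 and 9.67 in MigR1 cells in 4OHT and 9.48 and 9.73 in ethanol. In every group the replicate 2 array was the higher one, as it was for Slamf1, and the groups overlapped. For Slamf6, Cd27, Cd2 and Cd48 the replicate 1 array was the higher one in every group. The difference of Cd28 in Ik1ER cells was 0.15 (95% interval -0.22 to 0.53), and its second probe set differed by 0.11 (adjusted p = 0.882).

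The inhibitory receptors CD5 and CD6 were near background. Cd5 read 4.96 and 5.35 in Ik1ER cells in 4OHT and 4.66 and 4.91 in ethanol, and 4.89 and 4.74 in MigR1 cells in 4OHT and 4.73 and 4.85 in ethanol. Only Ik1ER 4OHT replicate 2 exceeded the background gauge. The difference in Ik1ER cells was 0.37 (95% interval 0.04 to 0.70, adjusted p = 0.220). Cd6, whose ligand is ALCAM, lay between 4.77 and 5.07 on all 8 arrays, with a difference of 0.09 in Ik1ER cells (95% interval -0.16 to 0.35). At readings this low RMA values compress differences, so a change of either transcript could be missed.

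Both Ik1ER 4OHT arrays lay above all 6 other arrays for 7 of the 10 genes, the 5 called together with Slamf1 and Cd5. Over all genes this held for 12.6%. For each of the 5 genes that rose, Ik1ER 4OHT cells were thus the highest of the 4 groups, and no tested pair among the 3 other groups was called.

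**Figure D3:**
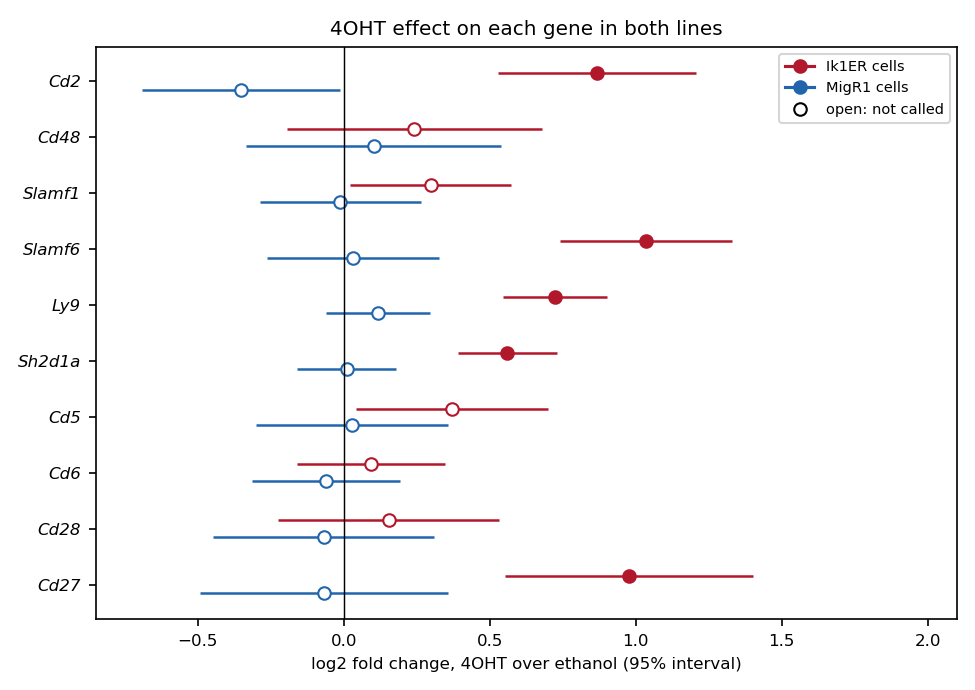
Log2 fold change of 4OHT over ethanol for each gene, in Ik1ER cells and MigR1 cells, with 95% intervals from limma. Filled points were called at an adjusted p under 0.05. In Ik1ER cells 5 genes were called, between 0.56 and 1.03, and in MigR1 cells none.

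Whether the effect of 4OHT depended on the construct was tested as the difference between the effects in Ik1ER and MigR1 cells. It was called for Cd2 (1.22, SE 0.21, adjusted p = 0.0382), Slamf6 (1.00, SE 0.18, adjusted p = 0.0471) and Ly9 (0.60, SE 0.11, adjusted p = 0.0473), that is 3 of 10 genes, all higher, beside 1.26% of all genes in either direction and 0.616% higher. For Cd2 the fitted value includes MigR1 readings that were not above the gauge, so its size is not settled. Sh2d1a (0.55, adjusted p = 0.0550) and Cd27 (1.04, adjusted p = 0.125) were not called, and neither were the other 5. These calls were close to the threshold. Leaving out 1 array mostly lowered the number of calls over all genes as well. Without Ik1ER ethanol replicate 1 or 2, MigR1 4OHT replicate 2 or either MigR1 ethanol array, 0 of the 10 were called. Without Ik1ER 4OHT replicate 2 the called genes were Cd2 and Slamf6, without MigR1 4OHT replicate 1 they were Cd2 and Cd27, and without Ik1ER 4OHT replicate 1 Slamf6 alone was called. The second probe set of Slamf6 (1420659_at) gave a difference of 1.11 between the effects (adjusted p = 0.0129 over all probe sets).

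MigR1 cells in 4OHT, which received the drug but lack the construct, give a second comparison for the induced cells. It shares the Ik1ER 4OHT arrays with the first. Slamf6 (0.84), Cd27 (0.97), Cd2 (1.15), Ly9 (0.48) and Sh2d1a (0.51) were higher in Ik1ER than in MigR1 cells in 4OHT, with adjusted p between 0.00521 and 0.0246, and the other 5 were not called. Of all genes 5.08% were called there, and 2.91% were called higher. With MigR1 readings of Cd2 set to the gauge, the bound for it was the same 1.73-fold as against ethanol. Both bounds compare the same Ik1ER 4OHT mean with the gauge, so this is not a separate result. Cd2 alone of the 5 was called under all alternative settings run for it. With either MigR1 4OHT array left out, fewer of the 10 genes were called, and fewer of all genes too. With ethanol alone the lines differed by -0.16 to 0.04 over the 10 genes and limma called none of them, nor any of the 18193 genes, of which 968 had an unadjusted p under 0.05. For 4OHT in MigR1 cells limma also called 0 genes, with 386 at an unadjusted p under 0.05.

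Ly9, Cd48, Slamf1 and Slamf6 are neighbours in the SLAM gene cluster, which by RefSeq's GRCm38.p6 gene order also holds Cd244a, Slamf7 and Cd84. All 7 of these receptor genes were measured. In Ik1ER cells 3 rose with 4OHT, namely Ly9, Cd84 and Slamf6, none fell and 4 were not called, beside 2.80% of all genes called higher. Ly9 and Slamf6 are 2 of the 10 genes described above. Cd84, a self-binding SLAM receptor of lymphocytes and platelets, read 7.52 and 7.26 in Ik1ER cells in 4OHT and 6.70 and 6.79 in ethanol, and 6.65 to 6.92 in MigR1 cells. It rose by 0.64 (SE 0.11, adjusted p = 0.0176), while a probe set of the same gene below the background gauge read -0.07. Its call was lost without Ik1ER 4OHT replicate 1, either Ik1ER ethanol array or both replicate 2 arrays of Ik1ER, with only the arrays of the groups compared, and with the average of its probe sets, where the value was 0.29 (adjusted p at most 0.115). Cd244a, which encodes the natural killer cell receptor 2B4, and Slamf7 had means of 4.01 and 3.98, below the gauge, and differed by -0.08 and -0.17. In chromosome order Cd84 and Slamf6 adjoin each other, while Slamf7, Cd48 and Slamf1 lie between Ly9 and Cd84.

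**Figure D4:**
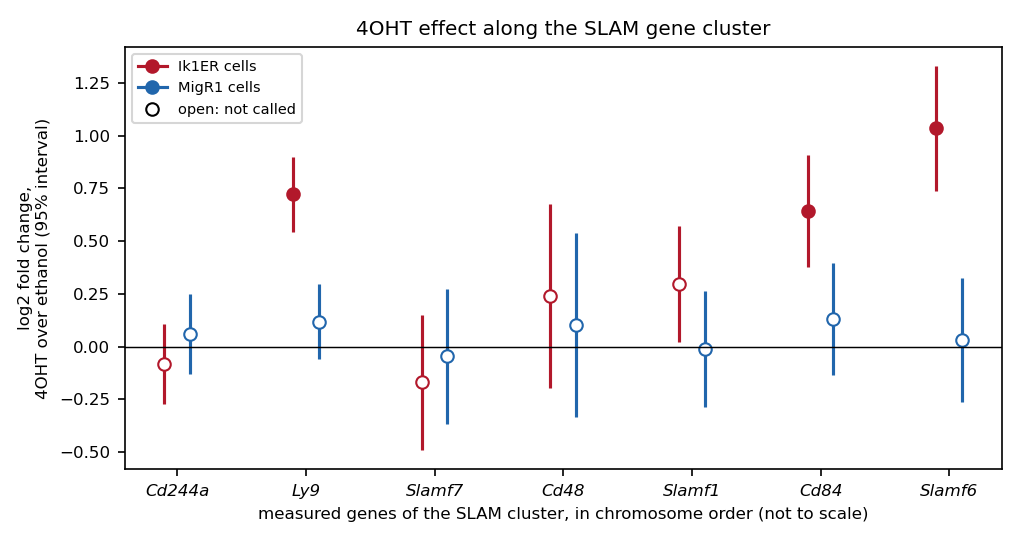
Log2 fold change of 4OHT over ethanol along the SLAM gene cluster in chromosome order (not to scale), in Ik1ER cells and MigR1 cells, with 95% intervals from limma. Ly9, Cd84 and Slamf6 were called in Ik1ER cells, at 0.72, 0.64 and 1.03.

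A list of ligands, related receptors and signalling partners of these receptors held 51 names, of which 44 were measured. In Ik1ER cells 9 rose with 4OHT, 3 fell and 32 were not called, or 27.3% called beside 5.34% of all genes. The median was 0.09, beside -0.0044 over all genes. In MigR1 cells 0 of the 44 were called, beside 0% of all genes. For Ik1ER against MigR1 cells in 4OHT, 8 of the 44 were called higher and 1 lower. That is 20.5% of them, beside 5.08% of all genes.

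Among receptors Icos, the inducible relative of CD28, read 6.89 and 6.58 in Ik1ER cells in 4OHT and 5.70 and 5.30 in ethanol. It rose by 1.24 (SE 0.23, adjusted p = 0.0202), and its 2 other probe sets read 0.50 and 0.74 and were not called. Against MigR1 cells in 4OHT the difference of Icos was 0.97 and was not called (limma, adjusted p = 0.0549). Ptprc, the phosphatase CD45, rose by 0.41 (SE 0.07, adjusted p = 0.0148), and its other probe set differed by 0.55 and was not called. Ctla4, the inhibitory receptor that competes with CD28, differed by 0.35 and was not called (adjusted p = 0.113).

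Of the signalling proteins, Prkcq, the protein kinase C theta that acts downstream of CD28, had the smallest p of the list. It read 9.65 and 9.84 in Ik1ER cells in 4OHT and 8.69 and 8.66 in ethanol, and between 8.58 and 8.76 in MigR1 cells. Prkcq rose by 1.07 (SE 0.09, adjusted p = 0.000809). Inpp5d, the lipid phosphatase SHIP1, which can be recruited by SLAM receptors, read 8.47 and 8.42 in Ik1ER cells in 4OHT and 7.66 and 7.61 in ethanol, a rise of 0.81 (SE 0.07, adjusted p = 0.000968). Prkcq and Inpp5d kept their calls in all 16 settings run for them. The other probe set of Inpp5d differed by 0.56 and was not called (adjusted p = 0.0705 over all probe sets). Prkcq and Inpp5d were the only genes of the list called for the difference between the lines (1.15 and 0.86, adjusted p = 0.00812 and 0.00965). That is 4.55% of the 44 measured, beside 1.26% of all genes.

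The phosphoinositide 3-kinase subunit gene Pik3r1 (0.67), the adaptor genes Grap2 (0.54) and Grb2 (0.43) and Pstpip1 (0.59), whose product binds the tail of CD2, also rose. Of the further probe sets of Pik3r1, 1 was called too, at 0.68, while those at 0.90 and 0.52 were not called. The second probe set of Grb2 read 0.22 and that of Grap2 0.59, and neither was called. Falls were seen for Alcam (-0.71), the ligand of CD6, for Slamf9 (-0.42) and for Cd2ap (-0.40), an adaptor that binds the tail of CD2. Against MigR1 cells in 4OHT, Slamf9 alone of these was called lower (-0.37). Alcam (-0.46) and Cd2ap (-0.25) were not called there (limma, adjusted p = 0.104 and 0.198). Alcam read 4.07 and 4.20 in Ik1ER cells in 4OHT and 4.68 and 5.01 in ethanol, all below the gauge. The size of its fall is therefore not settled. The further probe sets of Alcam differed by -0.51, -0.54, -0.68 and -0.07 and those of Cd2ap by -0.20 and -0.38, none of them called. The kinase gene Fyn, through which SAP signals, differed by -0.40 and was not called (adjusted p = 0.159), and neither was Zap70 (-0.04, adjusted p = 0.882). Each of the 10 other called genes of the list lost its call in at least 1 setting that left out an Ik1ER array, with adjusted p of at most 0.219. Without Ik1ER ethanol replicate 1, Icos and Alcam were the only ones of the 10 called, and without Ik1ER ethanol replicate 2, Grb2 and Pik3r1 were. Without Ik1ER 4OHT replicate 1, Pik3r1 and Pstpip1 alone were called, and without Ik1ER 4OHT replicate 2, Pik3r1, Grb2, Grap2 and Pstpip1 were lost. Slamf9, Grap2, Pstpip1 and Cd2ap were also lost without either MigR1 ethanol array, and Cd2ap without either MigR1 4OHT array. Of the 12 called genes of the list, 3 were called without both replicate 2 arrays of Ik1ER (Prkcq, Inpp5d and Pik3r1), and 3 with only the arrays of the groups compared (Prkcq, Inpp5d and Icos).

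**Figure D5:**
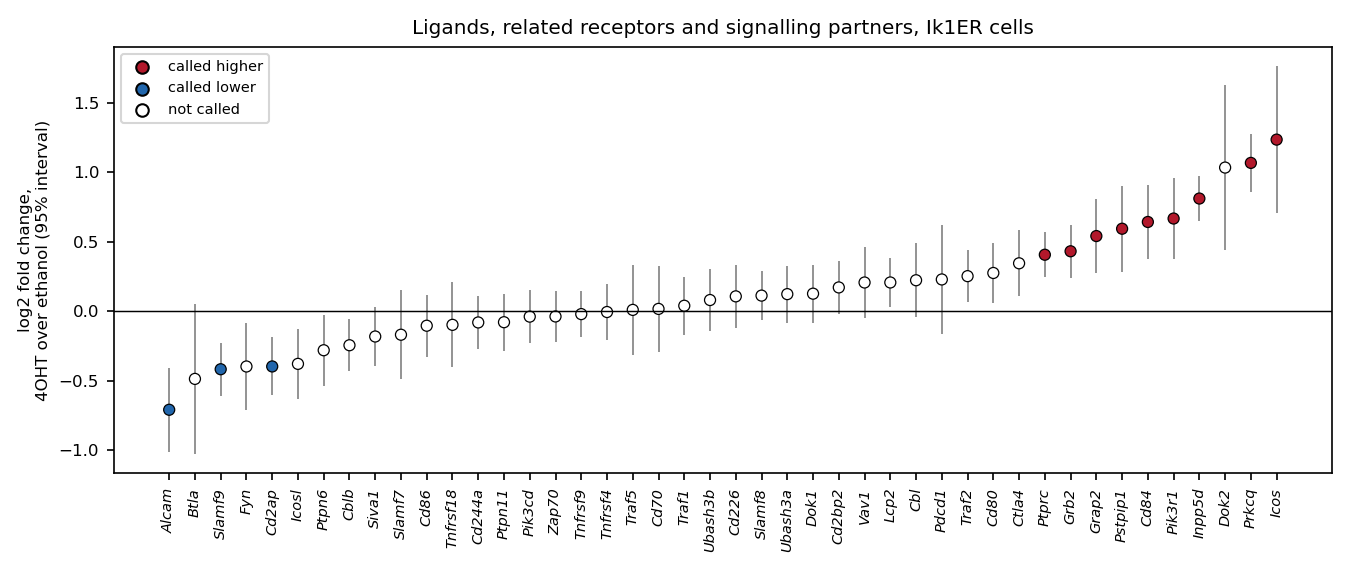
Log2 fold change of 4OHT over ethanol in Ik1ER cells for the 44 measured ligands, related receptors and signalling partners, in rising order, with 95% intervals from limma. The 9 called higher reach 1.24 (Icos) and the 3 called lower reach -0.71 (Alcam). The Ik1ER readings of Alcam were all below the background gauge, so the size of its fall is not settled.

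Over the 8 arrays, the genes most like each of the 5 risen genes were found as those with the smallest root-mean-square difference between profiles centred on their own mean, among 11267 genes above the background gauge. For Ly9 they were Socs1 (0.0512), Kcna3 (0.0569) and Ttll1 (0.0653, log2 units). For Sh2d1a they were Fis1 (0.0274), Slc25a14 (0.0394) and Agfg2 (0.0421). Slamf6 had Il9r (0.0800), Ostm1 (0.100) and Ctsl (0.101), Cd27 had Sit1 (0.0731), Slc37a3 (0.113) and Gzma (0.126), and Cd2 had Gimap1 (0.129), Atp2a3 (0.134) and Cpeb1 (0.137). With 1 array left out, between 7 and 12 of these 15 genes were found again. Among the 10 genes themselves the closest pair was Ly9 and Sh2d1a (0.0837). Next came Slamf1 and Cd28 (0.0967), neither of which was called.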

How the data were processed

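Per the labels' protocols, biotin-labelled targets from total RNA of T29 cells were put on Affymetrix arrays. The authors deposited log2 expression values, with a column for each array, which the submitters' processing notes credit to RMA. Its version, the probe set definition and the genome build were not stated there. RMA brings arrays to a common distribution, so a global shift cannot be seen, and it compresses changes of dim genes. Array medians lay between 5.36 and 5.43. Of 45101 probe sets, 34945 had 1 gene symbol in the platform annotation (34741 matched to RefSeq by gene identifier, 0 symbols changed), 932 had several and 9160 had none, beside 64 controls.

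A model of the 4 group means was fitted with limma 3.58.1 in R 4.3.3 (lmFit, eBayes, two-sided, 4 residual degrees of freedom) on all 8 arrays. Benjamini-Hochberg adjustment ran over 18193 genes, or over 45037 probe sets where single probe sets of a gene are compared, and an adjusted p under 0.05 was called. SE and 95% intervals use the spread pooled over the groups.

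The 10 genes, the lists and the tests were chosen with earlier results of these data known. By rule the text names the 10 genes, the called genes of the partner list, and the 3 genes most like each called one. Ctla4, Fyn, Zap70, Cd244a and Slamf7 of the partner list were named after their values were seen. Alternatives were a replicate block, a filter on dim genes, other eBayes settings, 2 scalings, the handling of probe sets, the arrays fitted, and leaving out arrays. Those for the partner list were added after seeing the data. The fit was tested on simulated data.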

Additional observations from a re-analysis of the deposited data

Results flagged for a closer look

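The effect of 4OHT differed between Ik1ER and MigR1 cells, by limma's test of the difference itself, for 3 of the 10 genes. For Cd2 the effect was 0.87 in Ik1ER cells and -0.35 in MigR1 cells, a difference of 1.22 (adjusted p = 0.0382), but the means of the 3 groups other than Ik1ER cells in 4OHT were not above the background gauge, so the size is not settled. For Slamf6 it was 1.03 and 0.03, a difference of 1.00 (adjusted p = 0.0471). For Ly9 it was 0.72 and 0.12, a difference of 0.60 (adjusted p = 0.0473). Under the alternative settings the call was kept in 7 of 15 for Cd2, 9 of 16 for Slamf6 and 5 of 16 for Ly9. The call of Ly9 was also lost when quantile normalization was repeated on all arrays.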

How the results depend on the processing

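For 4OHT in Ik1ER cells, 5 of the 10 genes and 971 of all genes were called. With only the arrays of the groups compared these were 5 and 399, and without both replicate 2 arrays of Ik1ER 3 (Slamf6, Ly9 and Sh2d1a) and 389. Leaving out 1 array gave 3 to 5 and 441 to 832. For the difference between the lines, 3 and 230 were called. With every probe set on its own, 0 of the 10 probe sets that stand for the genes and 177 of 45037 probe sets were called, although 1 further probe set of Slamf6 (1420659_at) was. The counts were 1 and 90 without both replicate 2 arrays of Ik1ER, and 4 and 444 with trend and robust eBayes, while leaving out 1 array gave 0 to 2 and 52 to 273. For Ik1ER against MigR1 cells in 4OHT, 5 and 925 were called, against 2 and 416 with only the groups compared, 3 and 592 without both replicate 2 arrays of Ik1ER, and 1 to 5 and 237 to 805 with 1 array left out. Settings with fewer arrays have fewer degrees of freedom, and the cause of the other shifts was not tested. In ethanol the lines differed for 0 genes, or 1 when the probe sets of each gene were averaged.

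The replicate numbers of the labels were tried as a replicate block, which gave 5 of the 10 genes for 4OHT in Ik1ER cells, 4 for the difference between the lines, where Cd27 was added, and 5 for the lines in 4OHT. Deviations of same-numbered arrays correlated at 0.45 between the Ik1ER groups, at 0.27 between the MigR1 groups and at -0.07 to 0.10 between the lines. The labels tie the numbers to no shared culture or batch, and with 2 arrays in a group they were not taken as pairs. No called value of the 10 genes reversed under any setting run. Recomputed under the alternatives, called results of the 10 genes gave 215 values, of which 49 lost the call. These were 9 of 84 for 4OHT in Ik1ER cells, 26 of 47 for the difference between the lines and 14 of 84 for the lines in 4OHT. Results that were not called gained a call in 7 cases. Cd5 and Cd6 were removed by the filter on dim genes, as was Cd2. Readings near background limit what can be said of these 3 genes.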
